A study of Mus musculus with 6 samples.

Results

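The genes Ctla4, Il4 and Ly9 are known from lymphocytes, and they were followed here in medullary thymic epithelial cells (mTECs). They were chosen because they stood among the largest rises in cells without Aire, so their change between the genotypes is described and not tested. All probes annotated to 1 of the 3 genes were taken, which gave 5 of the 46619 probes on the arrays: 1 for Ctla4, 1 for Il4 and 3 for Ly9. The cells were mTECs with high MHC class II from C57Bl/6 mice, the stromal cells of the thymic medulla that display tissue proteins to developing T cells. There were 3 arrays from wild-type mice and 3 from mice lacking Aire, the transcriptional regulator that drives much of this display. Wild-type replicates 1 and 3 and knockout replicate 2 were female and the other 3 samples male. The labels used here leave unsaid how the Aire allele was disrupted and whether mice were pooled, so p-values measure the spread between these samples, which may be technical.

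CTLA-4 is an inhibitory receptor of activated and regulatory T cells that competes with CD28 for the ligands CD80 and CD86, both carried by mature mTECs. Interleukin 4, the product of Il4, is the leading cytokine of type 2 immunity. It is made by T helper 2 cells, natural killer T cells, mast cells and basophils, and signals through a receptor that activates STAT6. In the genome Il4 lies in a cytokine cluster with Il13 and Il5, with Rad50 between the latter genes. Ly9 encodes a receptor of the SLAM family, whose members sit next to each other in the genome, bind mostly to their own kind on a neighbouring cell and signal through the adaptor SAP (Sh2d1a).

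RefSeq promoter windows of 300 bases, from 250 before to 50 after a start site, were matched for 2 of the 3 genes. The 250 bases before the outer start of each are shown because both genes were higher on every knockout array, with capitals for each match to the NFAT core GGAAA or its reverse complement. The Ctla4 stretch is chr1:60908775-60909024 on the plus strand and the Il4 stretch chr11:53618666-53618915 on the minus strand, both of build GRCm38.p6.
Ctla4: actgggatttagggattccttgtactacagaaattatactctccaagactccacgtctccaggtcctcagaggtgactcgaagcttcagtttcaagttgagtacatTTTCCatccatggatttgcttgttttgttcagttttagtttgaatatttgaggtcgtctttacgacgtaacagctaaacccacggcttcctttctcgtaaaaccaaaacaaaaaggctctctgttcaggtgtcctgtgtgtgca
Il4: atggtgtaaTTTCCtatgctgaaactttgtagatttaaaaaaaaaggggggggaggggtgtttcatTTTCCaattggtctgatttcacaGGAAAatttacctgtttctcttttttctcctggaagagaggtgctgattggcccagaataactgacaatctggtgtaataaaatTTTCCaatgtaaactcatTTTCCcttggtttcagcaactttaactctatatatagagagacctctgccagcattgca

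GGAAA is the core recognised by NFAT, a family of factors active in T cells. Also searched, on both strands, were the AP-1 motif TGANTCA, the promoter box with the letters TATAAA and the octamer motif ATGCAAAT. The Il4 window held the NFAT core 5 times, all within the 250 bases shown, a number reached or passed in 0.7% of the 32851 mouse promoter windows. The Ctla4 window held it 1 time, and 61.3% of all windows hold at least 1. A TATAAA lay from 40 to 45 bases after the Ctla4 start, outside the stretch shown, and 13.6% of windows hold one. Neither of these windows held the AP-1 motif, present in 7.8% of windows, or the octamer, present in 1.7%. The window at an inner Il4 start held 1 NFAT core and none of the other motifs. No matches overlapped in these windows. A match describes letters and not a binding site.

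Values are the normalized log2 values that the authors deposited, in which a difference of 1 unit is a doubling. A value above 6.81 was taken as above background on each array, and the 19430 probes (41.7%) above it on at least 3 of the 6 arrays were tested. Aire itself read 13.54, 13.66 and 13.40 in wild-type replicates 1 to 3 and 10.36, 10.30 and 10.01 in knockout replicates 1 to 3. Its change was −3.31 (SE 0.12, limma adjusted p = 4.57e-08), in the direction of the labels. Over all tested probes 38.5% were called at an adjusted p of 0.05, 4022 of them higher in the knockout (20.7% of those tested) and 3451 lower (17.8%). The split was 2341 and 4128 after cyclic loess and 8794 and 2205 after scaling to housekeeping genes, which shifted the median over tested probes by 0.24, from 0.10 to 0.34. That scaling set each array to the median level of 20 housekeeping genes. The median of their own changes was −0.05, so the shift is larger than their typical change. All 13 mTEC markers with a probe analysed here were above background on all 6 arrays, among them the keratins Krt5, Krt8 and Krt14, the claudins Cldn3 and Cldn4, and Fezf2. Of these 13, 2 rose and 3 fell, Aire included, beside 18.3% higher and 23.2% lower among all tested named genes. Krt5 (−1.83, SE 0.28, adjusted p = 6.58e-04) and Krt14 (−0.70, SE 0.13, adjusted p = 0.00198) fell, and the RANK receptor gene Tnfrsf11a rose by 0.51 (SE 0.09, adjusted p = 0.00222). The other riser, named after its value was seen, was the MHC class II gene H2-Aa (+0.45, SE 0.11, adjusted p = 0.0112). Its call ended without knockout replicate 2. The summed antilog level of the 13 genes, Aire included, was 94480 to 101900 in wild type and 83430 to 84720 in knockout. As this is bulk RNA, fewer cells of a type and less RNA per cell cannot be told apart.

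Ctla4 was measured by probe 6590537, annotated to NM_009843. It read 8.57, 8.38 and 8.30 log2 units in wild-type replicates 1 to 3, and 11.17, 11.31 and 11.02 in knockout replicates 1 to 3. All 3 knockout arrays lay above all 3 wild-type arrays, with 2.45 units between the lowest knockout and the highest wild-type value. The means were 8.42 ± 0.14 and 11.17 ± 0.15 (SD, n = 3 each), a difference of 2.75, or 6.75-fold. This was the rank 3 rise among the 19430 tested probes. Ctla4 was above background in wild-type cells too, on all 3 arrays.

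Il4 was measured by probe 6020537, annotated to NM_021283. It read 7.70, 8.07 and 8.31 in wild-type replicates 1 to 3, and 10.41, 10.64 and 9.93 in the knockout replicates. The groups did not overlap, and the spread within each was wider than for Ctla4. The means were 8.03 ± 0.31 and 10.33 ± 0.36 (SD, n = 3 each), a difference of 2.30, or 4.92-fold, at rank 4 of the tested probes.

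Ly9 had 3 probes. The brightest, 3360315, read 10.07, 10.46 and 10.47 in wild type and 12.32, 12.40 and 11.92 in knockout, in the same order of replicates. The means were 10.33 ± 0.23 and 12.21 ± 0.26 (SD, n = 3 each), a difference of 1.88, or 3.68-fold, at rank 17. Both this probe and 4070292 are annotated to NM_008534, and they moved alike. Probe 4070292 read 7.33, 7.76 and 8.01 on the wild-type arrays and 9.46, 10.003 and 9.44 on the knockout arrays. Its difference was 1.94, or 3.83-fold, at rank 14, again with no overlap of the groups. The third probe, 103390215, is annotated to a different transcript record, AK040306, and was not above background on any array. It read 6.29 to 6.40 in wild type and 6.27 to 6.67 in knockout, which overlap, so no fold is given.

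In all, 4 of the 5 probes had every knockout array above every wild-type array, as had 31.7% of all tested probes, and since these genes were chosen by this contrast nothing is read from that count. Within the knockout group all 4 of these probes were highest in replicate 2, the only female knockout sample, and lowest in replicate 3. Il4 lay 0.32 above its group mean in replicate 2 and 0.40 below it in replicate 3, whereas Ctla4 lay 0.15 above and 0.15 below. Within the wild-type group Il4 and both bright Ly9 probes were lowest in replicate 1 and highest in replicate 3. Ctla4 ran the other way, highest in replicate 1 (0.15 above the group mean) and lowest in replicate 3 (0.12 below).

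**Figure D1:**
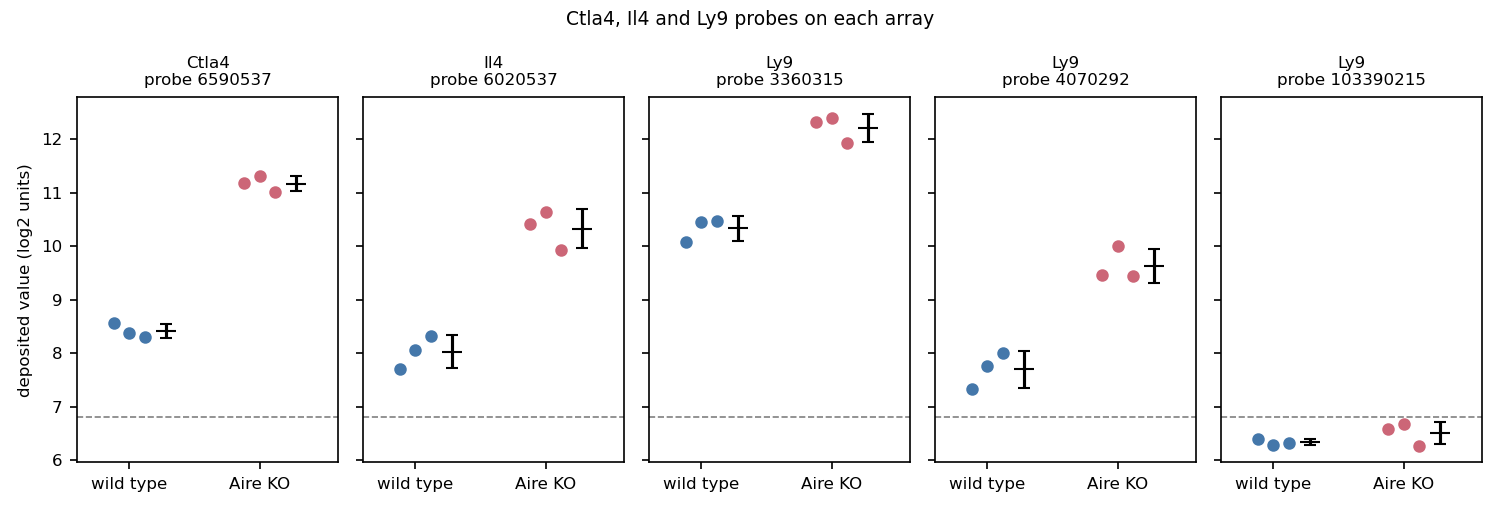
Deposited log2 values (y axis) of the 5 probes of Ctla4, Il4 and Ly9 on 3 wild-type (blue) and 3 Aire knockout (red) arrays, replicates 1 to 3 from left to right in each group. Black bars are the mean ± SD (n = 3) and the dashed line is the background bound at 6.81. The knockout arrays lie above the wild-type arrays for 4 probes, and the third Ly9 probe stays under the bound.

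Sex did not enter the choice of these genes and was tested in a limma model with genotype over all tested probes. None of the 4 probes above background passed, and none had an unadjusted p under 0.05. For Ctla4 the female minus male difference was 0.13 (SE 0.12, adjusted p = 0.972), and for Il4 it was 0.21 (SE 0.22, adjusted p = 0.972). For Ly9 it was 0.05 (SE 0.18, adjusted p = 0.988) on probe 3360315 and 0.23 (SE 0.21, adjusted p = 0.972) on probe 4070292. Of all tested probes 0.00515% were called for sex, which is 1 probe. The sex by genotype interaction, which asks whether the rise differs between the sexes, called 0% of the tested probes. It was 0.17 (SE 0.26) for Ctla4, 0.53 (SE 0.43) for Il4, and 0.47 (SE 0.34) and 0.64 (SE 0.38) for the bright Ly9 probes, each with an adjusted p of 1 and an unadjusted p between 0.14 and 0.543. The rise of Il4 was 2.63 between the female samples and 2.10 between the male samples, and that of Ctla4 2.88 and 2.72. With 1 female knockout and 1 male wild-type sample these sizes rest on few arrays.

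Each of the 2 beadchips held both genotypes. Within beadchip 1 the rise was 2.70 for Ctla4, 2.52 for Il4 and 2.05 for the brightest Ly9 probe. Within beadchip 2 it was 2.87, 1.97 and 1.68. By their date labels, wild-type replicates 1 and 2 came before the remaining 4 arrays. Among those 4, which leave wild-type replicate 3 alone against the knockouts, the rise was 2.87 for Ctla4, 2.01 for Il4 and 1.74 for Ly9.

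**Figure D2:**
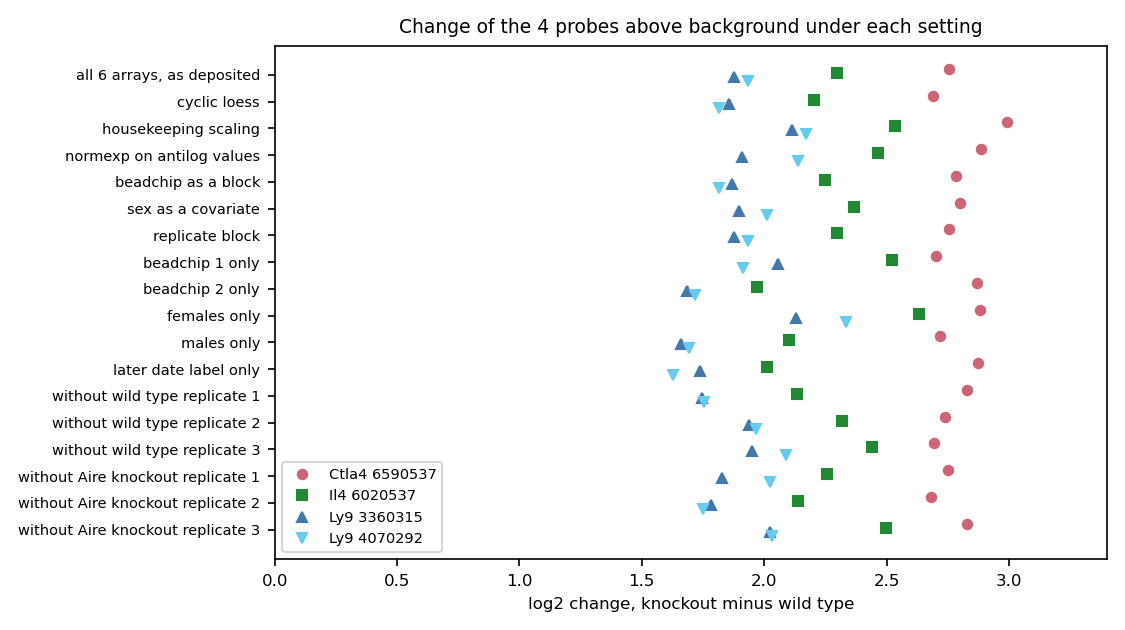
Log2 change from wild type to knockout (x axis) of the 4 probes above background with all 6 arrays, under other normalizations and covariates, within subsets, and without each array in turn (y axis). Ctla4 lies between 2.68 and 2.99, Il4 between 1.97 and 2.63, and the Ly9 probes between 1.63 and 2.33.

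The neighbours of the 3 genes on their chromosomes differed from locus to locus. For each gene the 5 nearest protein-coding genes on either side were taken in RefSeq order, and each gene was read from its brightest tested probe. Of 18 tested neighbours, 5 rose and 1 fell. Of all 11744 tested named genes 41.4% were called, 18.3% higher and 23.2% lower. None of the 5 tested neighbours of Ctla4 passed. Around Il4 3 of 8 rose and 1 fell, and around Ly9 2 of 5 rose and none fell.

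Next to Ctla4 the costimulatory receptor gene Cd28 read 6.91, 6.91 and 6.98 in wild type and 7.09, 7.39 and 7.05 in knockout, just above background (+0.24, SE 0.11, adjusted p = 0.115). Icos, on the other side, was not above background on any array. Raph1, a regulator of the actin cytoskeleton, changed by −0.02 (SE 0.13, adjusted p = 0.896), Cyp20a1 by +0.28 (SE 0.12, adjusted p = 0.0864) and the semaphorin receptor gene Nrp2 by −0.00 (SE 0.12, adjusted p = 0.994). The polarity gene Pard3b changed by +0.35 (SE 0.15, adjusted p = 0.101), while a second probe of it passed at +0.72 (SE 0.12, adjusted p = 0.00147).

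Around Il4 the changes went both ways. Il13, the cytokine nearest to it in both place and function, read 9.66, 10.06 and 9.92 in wild type and 10.79, 10.73 and 10.48 in knockout. The groups did not overlap, and Il13 rose by 0.79 (SE 0.13, adjusted p = 0.00122). Rad50, a DNA repair gene, read 8.28, 8.84 and 8.66 in wild type and 10.25, 10.49 and 10.01 in knockout, a rise of 1.66 (SE 0.17, adjusted p = 4.07e-05). A second Rad50 probe rose by 0.36 (SE 0.10, adjusted p = 0.0154). Il5, the eosinophil growth factor on the far side of Rad50, read 9.74, 9.83 and 9.52 in wild type and 7.60, 7.79 and 7.004 in knockout. It fell by 2.23 on the log2 scale (SE 0.19, adjusted p = 1.19e-05), so that Il4, Il13 and Rad50 stood higher and the adjoining Il5 lower in the same samples. On the other side of Il4 the kinesin gene Kif3a rose by 0.37 (SE 0.13, adjusted p = 0.0439), with a second probe at +0.89 (SE 0.22, adjusted p = 0.0108). The call of the first Kif3a probe ended with beadchip as a block, after cyclic loess or normexp, with no filter, with the filter on all 6 arrays, and without any single array except wild-type replicate 3. Septin8 (+0.06, SE 0.10, adjusted p = 0.616), Shroom1 (+0.21, SE 0.12, adjusted p = 0.198), the interferon regulator Irf1 (−0.15, SE 0.11, adjusted p = 0.304) and the carnitine transporter gene Slc22a5 (+0.27, SE 0.14, adjusted p = 0.153) did not pass. A second Slc22a5 probe passed at +0.46 (SE 0.13, adjusted p = 0.0219).

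Around Ly9, 2 SLAM family receptor genes on one side rose. Slamf7 read 7.82, 7.41 and 7.63 in wild type and 8.999, 9.10 and 8.61 in knockout, and rose by 1.28 (SE 0.15, adjusted p = 1.39e-04). A second Slamf7 probe gave +1.30 (SE 0.13, adjusted p = 5.08e-05). Slamf1, a costimulatory receptor of T cells, read 7.64, 7.78 and 7.65 in wild type and 8.44, 8.69 and 8.35 in knockout, and rose by 0.80 (SE 0.11, adjusted p = 4.54e-04). Cd48 and Cd84, which lie beside and beyond Slamf1, were not above background on any array and were not tested. On the other side of Ly9, Cd244a, the receptor for CD48, changed by +0.03 (SE 0.12, adjusted p = 0.842), the lectin gene Itln1 by +0.14 (SE 0.11, adjusted p = 0.344) and the junction protein gene F11r by +0.14 (SE 0.10, adjusted p = 0.299).

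**Figure D3:**
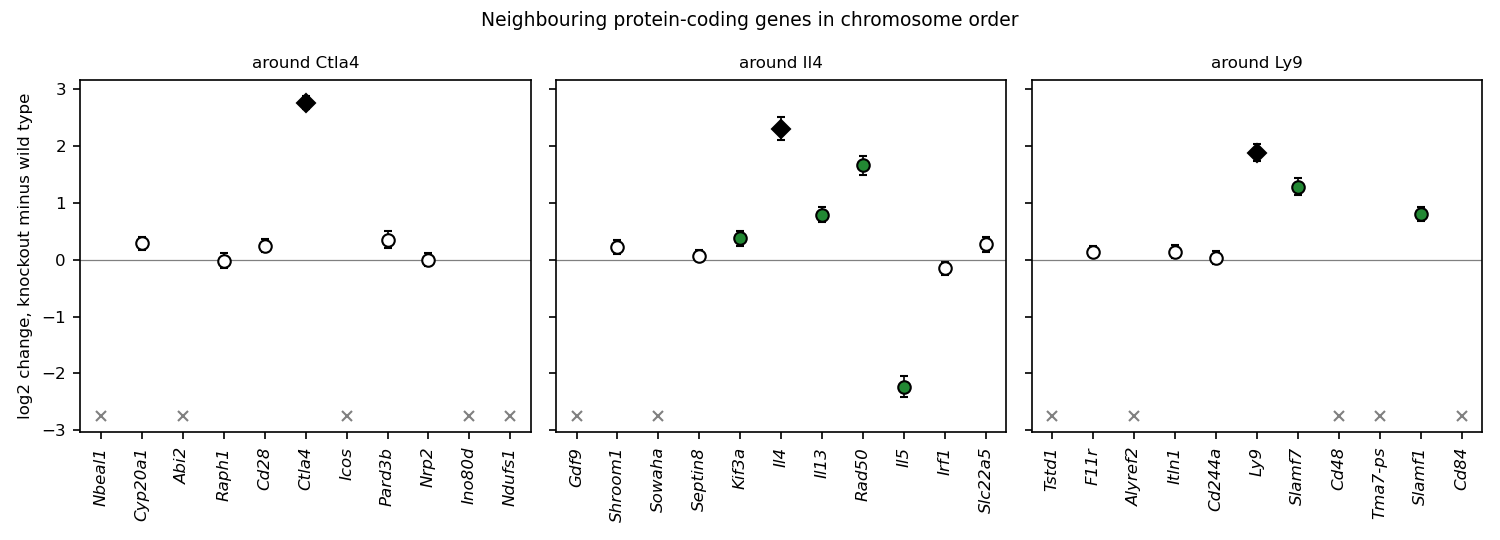
Log2 change from wild type to knockout (y axis, bars are the SE from limma) of the 5 protein-coding genes on each side of Ctla4, Il4 and Ly9, in chromosome order along the x axis. Black diamonds are the 3 chosen genes, green circles passed an adjusted p of 0.05, open circles did not, and grey crosses at the foot mark genes that were not tested. Il5 at −2.23 lies beside Rad50 at 1.66.

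The receptors and ligands listed with the CD28 family, to which CTLA-4 belongs, rose or did not pass. The list also held receptors outside that family, among them Lag3. Of 16 listed genes 14 had a probe analysed here and 11 were tested, of which 4 rose and none fell, beside the 18.3% and 23.2% of all tested named genes (median change 0.24, against 0.02 for all tested named genes). With housekeeping scaling 7 rose (median 0.48), and after cyclic loess 3 rose (median 0.14). Icosl, the ligand of ICOS, rose by 0.96 (SE 0.18, adjusted p = 0.00237), and Lag3, another inhibitory receptor of T cells that binds MHC class II, by 0.88 (SE 0.10, adjusted p = 1.36e-04). Lag3 read 9.28, 9.42 and 9.20 in wild type and 10.23, 10.24 and 10.07 in knockout. Tnfrsf14, the receptor for BTLA, rose by 0.58 (SE 0.10, adjusted p = 0.00117) and Pdcd1lg2, a ligand of PD-1, by 0.43 (SE 0.14, adjusted p = 0.0307). The call of Pdcd1lg2 ended after cyclic loess, with no filter on dim probes, with sex in the model, and without wild-type replicate 3 or knockout replicate 1 or 2. The ligands of CTLA-4, named after their values were seen, were bright in both genotypes and did not pass: Cd80 went from 9.42 ± 0.17 to 9.66 ± 0.12 (adjusted p = 0.131) and Cd86 from 10.76 ± 0.34 to 10.89 ± 0.49 (SD, n = 3 each, adjusted p = 0.68). A second Cd86 probe, under the bound in wild type, was at least 1.25-fold higher (adjusted p = 0.00233). Here and below "at least" sets the mean of the group above background against the larger, on each array of the other group, of the measured value and the lowest value that counts as above background.

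Of the 14 SLAM family and adaptor genes 13 had a probe analysed here and 8 were tested, of which 3 rose and 1 fell (median change 0.19, 0.06 after cyclic loess). With housekeeping scaling 5 rose and 1 fell (median 0.43). With the values as deposited, 18.3% of all tested named genes were higher and 23.2% lower. Besides Slamf7 and Slamf1, the inhibitory phosphatase gene Inpp5d rose, from 8.84, 8.58 and 8.60 to 9.74, 9.77 and 9.75, a change of 1.09 (SE 0.10, adjusted p = 3.14e-05). Slamf9, a family member of myeloid cells, read 9.66, 9.58 and 9.40 in wild type and 8.88, 8.86 and 8.77 in knockout, and fell by 0.71 on the log2 scale (SE 0.10, adjusted p = 5.38e-04). Sh2d1a, which encodes the adaptor SAP on which Ly9 signals, was named after its value was seen. It was near background and changed by +0.17 (SE 0.13, adjusted p = 0.315). Fyn, the kinase that SAP recruits, was not above background on any array.

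Among the listed receptor chain genes of IL-4, Il4ra and Il2rg had no probe analysed here, so their change is not known. The other listed receptor chains and the signalling genes that were tested showed small changes. Of 12 listed genes 10 had a probe analysed here and 8 were tested. Of these 2 were higher and 1 lower (median change 0.22), beside 18.3% and 23.2% of all tested named genes. With housekeeping scaling 6 were higher and none lower (median 0.46), and none were higher after cyclic loess or with beadchip as a block. The kinases Tyk2 (+0.32, SE 0.11, adjusted p = 0.0388) and Jak3 (+0.31, SE 0.11, adjusted p = 0.0445) rose. Both calls ended with beadchip as a block, after cyclic loess, with trended robust variance and without 5 of the 6 single arrays. That of Tyk2 also ended with sex in the model, and that of Jak3 after normexp and with the filter on all 6 arrays. Socs3, a feedback inhibitor of cytokine signalling, fell by 0.52 on the log2 scale (SE 0.10, adjusted p = 0.00343), a call that ended with housekeeping scaling. The transducer Stat6, named after its value was seen, read 8.28 ± 0.10 and 8.49 ± 0.09 (SD, n = 3 each) and did not pass (adjusted p = 0.133).

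Most tested genes that IL-4 is known to induce in other cells were lower in the knockout, where Il4 was higher. All 10 tested genes of this list of 12 passed, 9 lower and 1 higher, against 23.2% and 18.3% of all tested named genes, and the median change was −0.88 (−0.74 with genes at their bound). With housekeeping scaling, or with no filter on dim probes, 7 were lower. Retnla and, named after its value was seen, Ccl24 were above background in wild type only and entered the test through that group. Fcer2a (−0.49, SE 0.17, adjusted p = 0.0436), the low-affinity IgE receptor gene, and the chemokine gene Ccl22 (−0.44, SE 0.12, adjusted p = 0.0161), named after their values were seen, lost their calls with housekeeping scaling. Fcer2a also lost it with no filter, with sex in the model and when any 1 of 4 arrays was left out, and Ccl22 without wild-type replicate 2 or knockout replicate 2. Retnla, a hallmark of alternatively activated macrophages, read 9.67, 9.71 and 10.04 in wild type and fell under the bound in all 3 knockout samples, at least 7.98-fold lower (adjusted p = 4.32e-08). Ccl17, a chemokine for T helper 2 cells, fell by 1.24 on the log2 scale (SE 0.11, adjusted p = 1.93e-05). Arg1, the arginase of such macrophages, read 8.50, 8.35 and 8.37 in wild type and 7.14, 7.51 and 6.98 in knockout, a change of −1.20 (SE 0.14, adjusted p = 1.06e-04). The eosinophil chemokine gene Ccl11 changed by −1.30 (SE 0.37, adjusted p = 0.0215), a call that ended with no filter on dim probes and without wild-type replicate 1 or knockout replicate 1 or 2. The riser, named after its value was seen, was the transcription factor gene Bcl6 (+0.33, SE 0.09, adjusted p = 0.0221), whose call ended after cyclic loess and without wild-type replicate 2, knockout replicate 1 or knockout replicate 2.

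Among 14 type 2 cytokines and their regulators 13 were tested. Of these 3 rose and 3 fell (median change −3e-04, and +0.24 with housekeeping scaling), beside 18.3% and 23.2% of all tested named genes. Besides Il13 and Il5, Il3, a growth factor of mast cells and basophils, read 8.22, 7.88 and 8.08 in wild type and lay under the bound in all 3 knockout samples. It was at least 2.38-fold lower (adjusted p = 6.37e-07). Nfatc2, which encodes a factor of the NFAT family whose core motif is capitalised in the Il4 promoter above, read 7.19, 7.14 and 7.12 in wild type and 8.12, 8.13 and 7.77 in knockout. It rose by 0.86 (SE 0.12, adjusted p = 3.47e-04). Any part of Nfatc2 in the rise of Il4 was not tested. Gata3, the master factor of T helper 2 cells, was named after its value was seen and changed by −0.29 (SE 0.11, adjusted p = 0.0673).

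**Figure D4:**
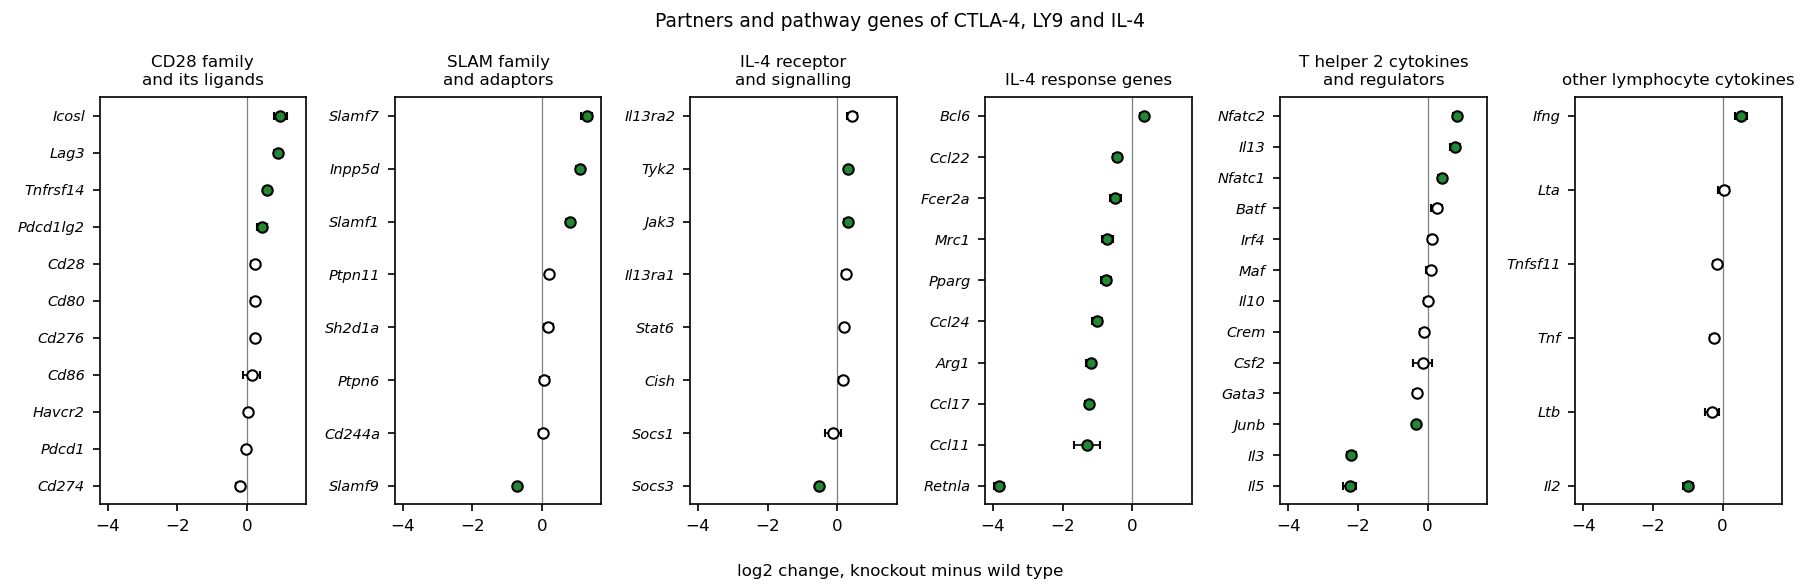
Log2 change from wild type to knockout (x axis, bars are the SE from limma) of the tested genes of 6 lists around CTLA-4, LY9 and IL-4, sorted by change. Green circles passed an adjusted p of 0.05 and open circles did not. Retnla lies farthest to the left at −3.82, measured against a knockout value under background, and all genes of the IL-4 response list other than Bcl6 lie below 0.

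Because the 3 genes are known from lymphocytes, markers of the cells that could carry them were read on the same arrays. Of 25 T cell and thymocyte markers 22 had a probe analysed here and 14 were tested. Of these 1 was higher and 4 lower in the knockout (median change −0.18, and +0.06 with housekeeping scaling). Among all tested named genes 18.3% were higher and 23.2% lower. The summed antilog level of the 22 genes was 8176 to 11040 in wild type and 7403 to 8888 in knockout, and these ranges overlap. The brightest gene, Thy1, made up 31.2% to 42.2% of it and did not pass (adjusted p = 0.278), and like the other genes named below for their part in such a sum it was named after its values were seen. Lat, Lef1, Rag1, Rag2, Dntt and Themis were not above background on any array. Cd4 and Cd247, named after their values were seen, were above background on 2 knockout arrays and no wild-type array, so they were not tested. On their brightest probes Cd4 went from a wild-type mean of 6.63 to 6.90 and Cd247 from 6.44 to 6.81. The T cell receptor component gene Cd3g read 9.002, 9.13 and 9.03 in wild type and 7.58, 8.08 and 8.46 in knockout, and fell by 1.01 on the log2 scale (SE 0.19, adjusted p = 0.00231). Trat1 (−0.82, SE 0.12, adjusted p = 4.14e-04), Cd3d (−0.61, SE 0.17, adjusted p = 0.0159) and the kinase Zap70 (−0.48, SE 0.14, adjusted p = 0.0252) also fell. The calls of Cd3d and Zap70 ended with housekeeping scaling and without knockout replicate 1 or 2, and that of Zap70 also with no filter, with sex in the model and without wild-type replicate 1 or 3. The riser, named after its value was seen, was Cd6 (+0.46, SE 0.10, adjusted p = 0.00588).

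Within the knockout group the T cell markers did not all follow the same order. Of the 14 tested, 8 were lowest in replicate 1, 5 in replicate 2 and 1, Trat1, in replicate 3, where Ctla4, Il4 and Ly9 were lowest. Highest in replicate 3 were 9 of the 14, and 7 of the 14 were also lowest in replicate 1. Without knockout replicate 3 the rise was 2.83 for Ctla4, 2.496 for Il4 and 2.03 for the brightest Ly9 probe. The part of these T cell markers in the changes of the 3 genes was not tested.

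**Figure D5:**
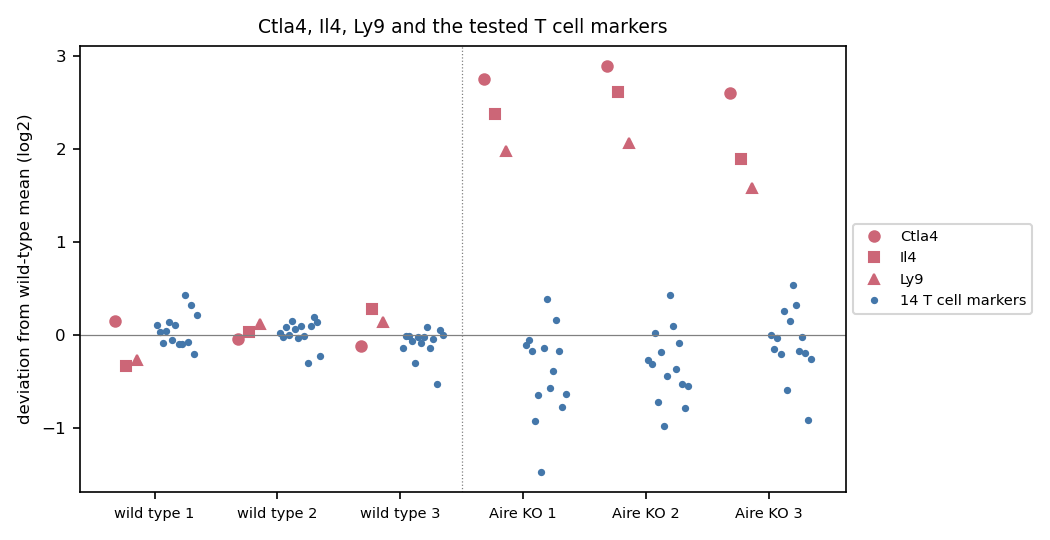
Deviation from the gene's own wild-type mean (y axis, log2 units) on each of the 6 arrays (x axis) of Ctla4, Il4 and Ly9 (red, brightest probe) and of the 14 tested T cell markers (blue). The markers lie between −1.47 and 0.54 on the knockout arrays; the red genes were chosen for their rise, so their distance from the markers is no finding.

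Of 9 markers of regulatory T cells, which carry much CTLA-4, 8 had a probe analysed here and 6 were tested. Of these 3 were higher and 1 lower, beside 18.3% and 23.2% of all tested named genes. Foxp3, the defining factor, was not above background on any wild-type array and read 7.23, 6.96 and 6.92 in knockout, at least 1.17-fold higher (adjusted p = 0.0331). This call ended after cyclic loess, with sex in the model, and without wild-type replicate 2 or 3 or knockout replicate 1 or 2. The receptor gene Tnfrsf4 rose by 0.90 (SE 0.17, adjusted p = 0.00208) and Tnfrsf18 by 0.27 (SE 0.09, adjusted p = 0.0425), the latter call ending after cyclic loess, with sex in the model, with the filter on all 6 arrays, with trended robust variance, and without any single array except wild-type replicate 1. After cyclic loess or with sex in the model 1 gene of the list rose, and the median change of 0.17 became 0.02 after cyclic loess and 0.40 with housekeeping scaling. Gpr83 was at least 4.54-fold lower (adjusted p = 4.69e-08) on its brightest probe, while a second probe changed by +0.17 (adjusted p = 0.23). Ikzf2 and Izumo1r were not above background on any array. The summed level of the 8 genes was 2101 to 2391 in wild type and 2347 to 2925 in knockout, of which Tnfrsf4 made up 37.2% to 69.3%. Its part in the rise of Ctla4 was not tested.

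Markers of mast cells, basophils and innate type 2 cells, the innate sources of IL-4, split. Of 13 listed 12 had a probe analysed here and all 9 tested passed. Of these 6 were lower and 3 higher (median change −0.96, −0.50 with genes at their bound). Among all tested named genes 23.2% were lower and 18.3% higher. Prss34, Mcpt4, Tpsb2 and, named after its value was seen, Fcer1a were above background in wild type only and entered the test through that group. Among the mast cell and basophil proteases 4 fell, with Prss34 at least 11.9-fold lower (adjusted p = 4.14e-09), Mcpt4 at least 4.84-fold (adjusted p = 5.24e-08) and Tpsb2 at least 1.91-fold (adjusted p = 2.97e-05), and Cma1 changed by −1.62 (SE 0.12, adjusted p = 6.66e-06). The risers, named after their values were seen, were the growth factor receptor gene Kit (+0.61, SE 0.12, adjusted p = 0.00308), the histidine decarboxylase gene Hdc (+0.50, SE 0.11, adjusted p = 0.0061) and Zbtb16 (+0.29, SE 0.10, adjusted p = 0.0493). The call of Zbtb16 ended with beadchip as a block, after cyclic loess, with sex in the model and without any single array except knockout replicate 3. The defining markers Cpa3, Ms4a2 and Mcpt8 were not above background on any array and were not tested. The summed level of the 12 genes was 13370 to 15660 in wild type and 16210 to 18260 in knockout, of which Hdc alone made up 61.3% to 76.9% and Kit 12.2% to 17.8%, so the sum follows these 2 genes and not the list. Its part in the rise of Il4 was not tested.

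Of the B cell markers 8 had a probe analysed here and 4 were tested, with 1 higher and 2 lower. Beside the counts of this paragraph, 18.3% of all tested named genes were higher and 23.2% lower. Vpreb3 changed by −1.02 (SE 0.12, adjusted p = 1.34e-04), and Cd79a was at least 1.26-fold lower (adjusted p = 1.37e-04), whereas Cd79b rose by 0.34 (SE 0.09, adjusted p = 0.0175; the call ended without knockout replicate 1 or 2). Ms4a1, Pax5, Cd22 and Cr2 were not above background on any array. Their summed level over 8 genes was 7777 to 9666 in wild type and 9086 to 9888 in knockout, of which Blnk made up 70.7% to 76.2%. Of 9 natural killer cell markers 5 were tested (median change 0.08, and −0.05 after cyclic loess), with 2 higher (Eomes, at least 1.64-fold, adjusted p = 3.59e-04, and Tbx21, +0.38, adjusted p = 0.0473) and 2 lower (Nkg7, at least 1.83-fold, adjusted p = 7.65e-06, and Klrd1, at least 1.09-fold, adjusted p = 0.002). The call of Tbx21 ended with beadchip as a block, after cyclic loess or normexp, with no filter, with the filter on all 6 arrays, and without any single array except knockout replicate 3. Ncr1, Prf1, Gzma and Gzmb were not above background on any array, and the summed level of the 9 genes was 2031 to 2072 in wild type and 1991 to 2528 in knockout, of which Tbx21 made up 57.4% to 70.5%. Of the dendritic cell and macrophage markers 9 had a probe analysed here and 4 were tested. The transcription factor gene Batf3 rose by 1.35 (SE 0.14, adjusted p = 5.78e-05) and Adgre1 was at least 1.22-fold lower (adjusted p = 0.00295). Itgax, Flt3, Xcr1, Clec9a and Cd209a were not above background on any array, and the summed level was 6020 to 7908 in wild type and 8504 to 9180 in knockout, but Lyz2, which did not pass (adjusted p = 0.261), made up 72.6% to 84.8% of it. The part of these markers in the changes of Ctla4, Il4 and Ly9 was not tested.

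The genes whose pattern over the 6 arrays lay nearest to each of the 3 genes were found by the root mean square difference of profiles centred on their own wild-type means. For Ctla4 the nearest of all tested named genes was Tmem241, at a distance of 0.36 log2 units, followed by Tafa1 (0.43), Il4 (0.43), Cbln4 (0.49) and Rgr (0.54). For Il4 they were Tafa1 (0.21), 4933436H12Rik (0.30), Tmem241 (0.31), Cbln4 (0.31) and Ly9 (0.31). Tafa1 read 6.84, 7.07 and 7.14 in wild type and 9.03, 9.50 and 9.17 in knockout. For Ly9 the nearest was Dusp15, a phosphatase gene, at 0.07, followed by Stac (0.16), the growth factor gene Fgf10 (0.16), Ppp1r3c (0.16) and Olfr1136 (0.18). Dusp15 read 9.64, 9.92 and 9.81 in wild type and 11.72, 11.81 and 11.40 in knockout, lowest in wild-type replicate 1 and in knockout replicate 3, as Ly9 was. The measure takes in the size of the change between the groups as well as the order of arrays within them. Since the 3 genes were chosen by that size, their nearness to each other is no finding.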

How the data were processed

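Single-colour Illumina bead arrays measured total RNA of 6 mTEC samples, 3 per genotype. The authors deposited normalized log2 values; BeadStudio and lumi are named per the submitters' processing notes, while no source used here states the background correction, the normalization method or the exact transform. Folds were computed as 2 raised to a difference in value, so that any background left in the values makes folds of dim genes too small. A further 24 value columns, whose names match no sample label, were not used.

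The background bound was the mode of each array's values plus 3 SD of the values below the mode. A probe above it on at least 3 arrays was tested. A probe above it only on the 3 arrays of a single genotype entered through the group where it was higher. Its entry thus depended on the difference that was tested. All probes with a fold given as "at least" entered in this way. Of the probes, 32782 had 1 gene symbol, 55 several and 13782 none, and those with several or none were left unnamed. A gene was read from its brightest tested probe. The genotype fit used lmFit and eBayes of limma 3.58.1 (R 4.3.3), two-sided and without covariates. P-values were adjusted by Benjamini-Hochberg over the 19430 tested probes, with a threshold of 0.05. The fit was tested on simulated data. Precision rests on 3 arrays per group.

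The 3 genes and the 13 lists were chosen with earlier results of these data known. The text names all probes of the 3 genes, Aire, up to 4 called genes per list with the largest changes, tested neighbours and the 5 nearest patterns. Alternatives were cyclic loess, scaling to 20 tested housekeeping genes, normexp on antilog values (offset 16), other filters, beadchip, sex or replicate number as covariates, subsets of arrays, a trended and robust variance, and leaving out each array. Motifs and neighbour order came from RefSeq tables of GRCm38.p6; no array build is named, so no gene coordinates are given.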

Additional observations from a re-analysis of the deposited data

How the results depend on the processing

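The changes of Ctla4, Il4 and both bright Ly9 probes stayed positive under the 17 alternatives run for each. Leaving out 1 array gave 2.68 to 2.83 for Ctla4, 2.13 to 2.496 for Il4, 1.75 to 2.03 for Ly9 probe 3360315 and 1.75 to 2.09 for probe 4070292. They moved by more than 1 SD to 2.99 for Ctla4 with housekeeping scaling, and in females to 2.13 and 2.33 for the bright Ly9 probes. The dim Ly9 probe 103390215 moved to 0.41 with housekeeping scaling. The sex difference of these probes passed under no alternative run, and its sign turned for some probes without wild-type replicate 3, knockout replicate 2 or knockout replicate 3.

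Calls over all tested probes were 4022 higher and 3451 lower. They were 2341 higher after cyclic loess, 8794 higher and 2205 lower with housekeeping scaling, and 1887 lower when probes had to be above background on all 6 arrays. Fewer arrays gave 515 higher and 1467 lower on beadchip 1, 908 and 1709 on beadchip 2, 728 and 1692 in females, 1966 higher in males and 2297 higher among arrays with the later date label. Leaving out 1 array gave 2459 to 4114 higher, the lowest being 2459 without knockout replicate 2 and 2606 without knockout replicate 1. Over all 13 lists 27 genes were higher and 34 lower, where 18.3% of all tested named genes were higher and 23.2% lower. The list counts became 18 and 35 after cyclic loess, and 40 and 27 with housekeeping scaling. With probes above background on all 6 arrays 19 were lower. The counts were 7 higher and 20 lower on beadchip 1, 8 and 18 on beadchip 2, 12 and 19 in females, 12 higher in males and 16 higher with the later label. Leaving out 1 array gave 17 (without knockout replicate 2) to 24 higher. None of the 61 called list genes turned sign under any alternative run.

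With the replicate block 3969 probes were higher and 3452 lower, and 23 and 34 list genes. The calls of Kif3a, Jak3, Tyk2, Tbx21, Zbtb16 and Tnfrsf18 ended with it. The numbers were not treated as pairs: deviations of same-numbered arrays correlated at 0.20, −0.06 and −0.02 across probes, and not every array correlated best with its own number. Dim probes limit what can be said of Icos, Cd48, Cd84 and the third Ly9 probe.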

Other observations

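Among 13 cytokine genes of other lymphocyte programmes 6 were tested. In the knockout 1 was higher and 1 lower (median change −0.21, and +0.03 with housekeeping scaling). Among all tested named genes 18.3% were higher and 23.2% lower. Il2, the T cell growth factor, read 7.39, 7.54 and 7.14 in wild type and lay under the bound in all 3 knockout samples, at least 1.46-fold lower (adjusted p = 4.84e-04). Ifng, the cytokine of T helper 1 and natural killer cells, read 7.65, 7.80 and 7.41 in wild type and 7.96, 8.50 and 7.97 in knockout, and rose by 0.53 (SE 0.16, adjusted p = 0.029). The call of Ifng ended after cyclic loess, with no filter on dim probes, with beadchip as a block, and without wild-type replicate 3 or knockout replicate 2. Il6, Il17a, Il17f, Il21, Il22, Cd40lg and Fasl were not above background on any array.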
